A study of Mus musculus with 2 samples.

Results

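NR4A and EGR genes encode 2 small families of transcription factors that T cells switch on when their antigen receptor is engaged. They were followed here in the 2 RNA libraries of a study of CD4 T cell exhaustion. The members were the 6 genes of the read count table named Nr4a1, Nr4a2, Nr4a3, Egr1, Egr2 and Egr3, out of 35275 genes in all, and all 6 were found once. The T cells were TEa cells, CD4 T cells of a C57BL/6 background whose transgenic receptor sees a piece of I-E alpha, a class II chain of BALB/c mice. They were sorted from the spleen after adoptive transfer. In the exhausted group the recipients were CB6F1 mice, which as BALB/c by C57BL/6 hybrids carry the antigen in their own cells, and the labels name no graft. In the effector group the recipients were wild-type C57BL/6 mice bearing a BALB/c skin transplant. The study set out to contrast abundant with moderate antigen, but recipient strain and graft differ along with it, so these cannot be told apart. The sources used here do not give the time after transfer, the age and sex of the mice or whether mice were pooled.

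NR4A proteins are orphan nuclear receptors that act without a known natural ligand. Nr4a1 encodes NUR77, Nr4a2 encodes NURR1 and Nr4a3 encodes NOR1. EGR proteins are zinc finger factors that bind GC-rich sites. Both families are immediate early genes, meaning that they are transcribed within minutes of a stimulus from factors already present in the cell, with calcium, calcineurin and the MAP kinase pathway upstream. In T cells EGR2 and EGR3 are known for restraining activation and for a part in anergy, and NR4A factors are known for a part in exhaustion, tolerance and regulatory T cells. Transcripts of these genes are short-lived, so a level reflects recent transcription.

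The libraries held 8508129 counted reads for the exhausted and 7844445 for the effector group, 1 library each. No spread between animals can be estimated, so no test was possible, no p is given and no value has a replicate check. A fold below is the ratio of reads, each divided by the library's effective size. Its 95% interval is an exact Clopper-Pearson interval that covers counting error only. A gene was taken as measured from 50 reads, summed over the libraries. It was called higher or lower when its fold was at least 2 and the interval excluded equality. Of 9999 measured genes, 6.62% were called higher and 7.09% lower in the exhausted library.

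Both libraries carried the transcripts of CD4 T cells, with Cd4 at 15463 reads in the exhausted and 9272 in the effector library and Cd3e at 11432 against 7624. The listed markers of CD4 T cells were divided, with 6 of 10 at a fold above 1 and 4 below. Trbc2, with the most reads of them, had 27705 against 29944. Trac, the only one called, was lower in the exhausted library (11561 against 22526, 0.473-fold). Markers of other spleen cells, which can also transcribe EGR and NR4A genes, were mostly scarce, with immunoglobulin genes as the exception. The B cell gene Ms4a1 had 0 reads in both libraries, which allows up to 3 reads in each, while the immunoglobulin gene Ighm had 3851 against 7540 and Igkc 133 against 223. The B cell list, 9 genes in the table, summed to 470.7 CPM (reads scaled by the effective library size) in the exhausted and 992.7 in the effector library. The 12 monocyte, macrophage and neutrophil markers summed to 25.3 against 20.4, led by Itgam (183 against 22 reads) and Lyz2 (10 against 37). Itgam alone gave 21.5 CPM in the exhausted library, and 3450 of its exon bases overlap Gm49368 on the same strand. Of the other markers with reads, only Cd68 had more in the exhausted library (11 against 8). Dendritic cell markers summed to 6.23 against 8.54, NK cell markers to 28.2 against 15.04 and erythroid and platelet markers to 1.88 against 15.3 CPM. Klrb1c alone gave 26.9 CPM of the NK sum in the exhausted library, and the other NK markers with reads had fewer there. Siglech, Ly6g, Fcgr1, Klre1 and Cd8a had 0 reads in both libraries. The part of other cells in the results below was not tested. In such bulk samples, more cells that transcribe a gene and more RNA of it per cell cannot be told apart.

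Egr2, Egr3 and Nr4a2 were each more than 3-fold higher in the exhausted library. Egr1 was higher by less than 2-fold, Nr4a1 was nearly level, and Nr4a3 had too few reads to be measured. The 3 genes called higher are 3 of the 5 measured members, and none was called lower. That share is given beside the 6.62% of all measured genes called higher. Nr4a2 and Egr3 reached the read minimum through their reads in the exhausted library, so the count is a description only. All 6 members had a fold above 1, as did 49.5% of measured genes.

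Egr2 (ENSMUSG00000037868, mm10 chromosome 10, 67535475 to 67542188, plus strand) had 1321 reads in the exhausted library, against 357 in the effector library. This was a fold of 3.41 (3.03 to 3.84), and 2.6% of measured genes had a larger one. Among the 3 genes called higher it rests on the most reads, so its interval is the narrowest. Its level per length, in RPKM (scaled reads over gene length), was 52.4 in the exhausted and 15.35 in the effector library. By that level 16.0% of measured genes stood above it in the exhausted library and 48.5% in the effector library.

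Egr3 (ENSMUSG00000033730, chromosome 14, 70077445 to 70080157, plus strand) encodes a factor that acts beside EGR2 in T cells. It had 111 reads in the exhausted library, against 28 in the effector library. The fold was 3.65 (2.40 to 5.75), an interval that holds the fold of Egr2. The deposited table gives Egr3 a length of 1416 bases, while the exons of GENCODE M21 add up to 4406 bases and run on to position 70082614. Reads past the table's end of the gene may therefore not be counted, and the level per length of Egr3 depends on the model. It was 9.21 against 2.52 RPKM by the table's length and 2.96 against 0.810 by the GENCODE length. The fold uses the same counted region in both libraries and does not depend on the length.

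Egr1 (ENSMUSG00000038418, chromosome 18, 34859823 to 34864984, plus strand), whose product is the most widely used marker of this response, had the most reads of the 6. It had 3134 reads in the exhausted library, against 1650 in the effector library. The fold was 1.75 (1.65 to 1.86), so the interval excluded equality and stayed under 2. At a threshold of 1.5-fold Egr1 was called higher, as were 13.6% of measured genes. Its level was 82.1 RPKM in the exhausted and 46.9 in the effector library. Egr4, the remaining gene of the family and no member, had 4 reads against 3.

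Within the EGR family the make-up of the reads shifted toward Egr2. Egr2 took 28.9% of the reads of the 3 EGR genes in the exhausted library (1321 of 4566, 27.6 to 30.3%) and 17.5% in the effector library (357 of 2035, 15.9 to 19.3%). Egr1 took 68.6% (67.3 to 70.0%) in the exhausted and 81.1% (79.3 to 82.8%) in the effector library. Egr3 took 2.43% (2.004 to 2.92%) against 1.38% (0.916 to 1.98%), or 6.41% against 3.89% when reads are counted per kilobase. The intervals of the 2 libraries did not overlap for any of the 3 genes, and such shares do not depend on how the libraries are scaled. There were 2.37 Egr1 reads per Egr2 read in the exhausted library (2.22 to 2.53) and 4.62 in the effector library (4.12 to 5.20). By contrast there were 11.9 Egr2 reads per Egr3 read (9.80 to 14.6) in the exhausted and 12.75 (8.67 to 19.5) in the effector library, with overlapping intervals. Summed over the 3 genes, the EGR family had 4566 reads in the exhausted and 2035 in the effector library (2.07-fold, 1.96 to 2.18). Without Egr1 the sum was 3.43-fold higher (3.06 to 3.85).

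**Figure D1:**
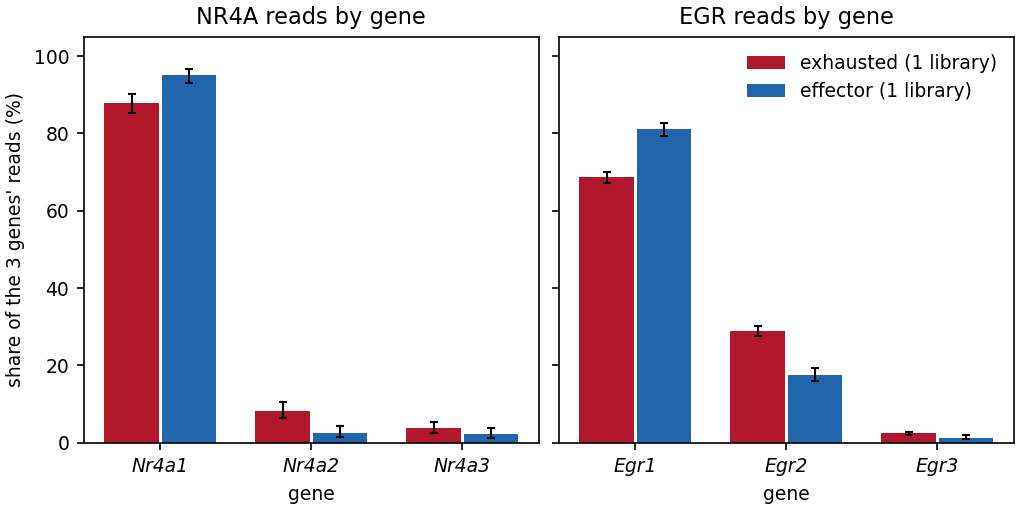
Share of each gene (x axis) in the reads of its family of 3 genes, in percent (y axis), in the exhausted (left bars) and the effector library (right bars), 1 library each. Lines are exact 95% counting intervals. Egr2 made up 28.9% of EGR reads in the exhausted library, against 17.5% in the effector library, and Nr4a1 made up most NR4A reads in both.

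In the NR4A family the abundant member was close to level and a scarce one differed. Nr4a1 (ENSMUSG00000023034, chromosome 15, 101266846 to 101274792, plus strand) is the gene whose promoter drives the common reporters of antigen receptor signalling in mice. It had 664 reads in the exhausted library, against 552 in the effector library. The fold was 1.11 with an interval that included equality (0.989 to 1.24) and excluded a difference of 1.5-fold in either direction. With DESeq2 size factors it excluded equality, at 1.01 to 1.27. Its level was 31.5 RPKM in the exhausted and 28.45 in the effector library. The table's gene model for Nr4a1 starts at 101266846, while GENCODE M21 also has exons from 101254269 on.

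Nr4a2 (ENSMUSG00000026826, chromosome 2, 57106830 to 57124003, minus strand) had 63 reads in the exhausted library, against 15 in the effector library. Its fold of 3.87 was the largest of the members, but the interval ran from 2.18 to 7.32 and overlapped those of Egr2 and Egr3. The level was low in both libraries, at 2.08 against 0.536 RPKM. Nr4a3 (ENSMUSG00000028341, chromosome 4, 48045153 to 48086447, plus strand) had 28 reads against 13. With 41 reads over both libraries it fell short of the minimum, and its fold of 1.98 had an interval from 0.995 to 4.17. The interval lies at the edge of equality and excluded it under 3 other scalings, from 1.001, 1.002 and 1.015, so at this depth the data do not settle whether Nr4a3 differed.

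Nr4a1 took 87.9% of NR4A reads in the exhausted library (664 of 755, 85.4 to 90.2%) and 95.2% in the effector library (552 of 580, 93.1 to 96.8%). Nr4a2 took 8.34% (6.47 to 10.55%) against 2.59% (1.46 to 4.23%), again without overlap of the intervals. For Nr4a3 the intervals of the shares, 3.71% (2.48 to 5.32%) and 2.24% (1.199 to 3.80%), overlapped, and per kilobase the shares were 1.68% and 0.990%. Summed over the 3 genes, NR4A reads differed by 1.2-fold (1.08 to 1.34), with 755 in the exhausted and 580 in the effector library. Without Nr4a1 there were 91 reads against 28, a fold of 2.996 (1.94 to 4.75).

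The order of the levels per length differed between the libraries at 1 place. In the exhausted library it ran Egr1, Egr2, Nr4a1, Egr3, Nr4a2 and Nr4a3, from 82.1 down to 0.575 RPKM. In the effector library Nr4a1 stood above Egr2, at 28.45 against 15.35, and the rest of the order was the same, down to 0.290 for Nr4a3. There were 50.3 Nr4a1 reads per 100 Egr2 reads in the exhausted library (45.7 to 55.2) and 154.6 in the effector library (135.1 to 177.1). Neighbours in these orders had separate counting intervals, except Nr4a2 and Nr4a3 in the effector library (0.3 to 0.884 and 0.154 to 0.495). The GENCODE exon lengths gave the same 2 orders.

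**Figure D2:**
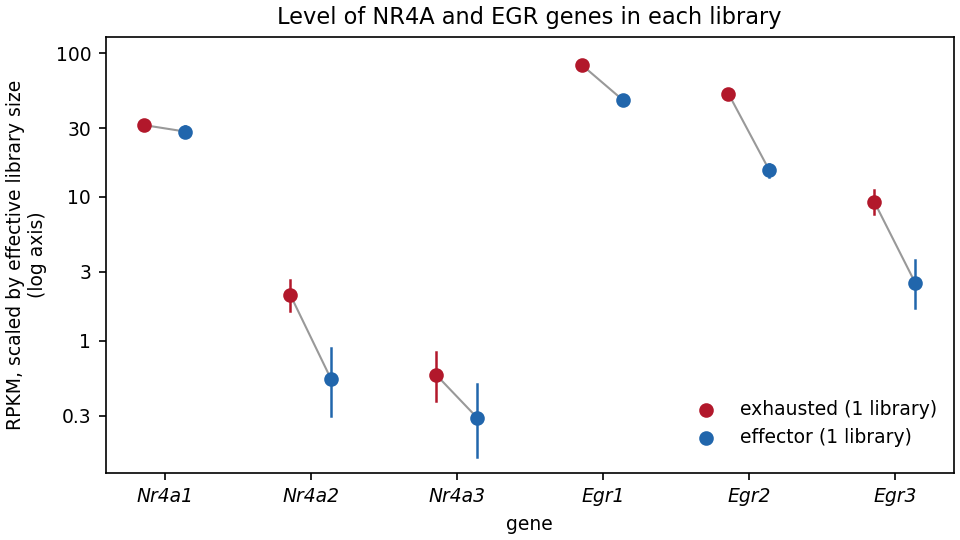
Level of the 6 genes (x axis) in RPKM on a log axis (y axis), for the exhausted (left points) and the effector library (right points), 1 library each. Vertical lines are exact 95% Poisson intervals of the reads and cover counting error only, and lines joining points only pair the libraries. Egr2 lies above Nr4a1 in the exhausted library (52.4 against 31.5) and below it in the effector library (15.35 against 28.45).

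Promoter sequence is given for Nr4a1, Nr4a2, Nr4a3 and Egr2, to show a motif that recurs in the NR4A genes. Nr4a1 and Nr4a2 held the same number of copies, at folds of 1.11 and 3.87, and any link between motif and fold was not tested. RefSeq windows of build GRCm38.p6 are reported for Nr4a1, Nr4a2, Nr4a3 and Egr2, and none is reported for Egr1 or Egr3. The bases before the start are shown, without any base in an annotated exon of the gene. Capitals mark the cyclic AMP response element core TGACG on either strand (CGTCA on the strand shown) and, in Egr2, also the CArG box, the site of serum response factor.
Nr4a1, chr15:101266596-101266845, plus strand: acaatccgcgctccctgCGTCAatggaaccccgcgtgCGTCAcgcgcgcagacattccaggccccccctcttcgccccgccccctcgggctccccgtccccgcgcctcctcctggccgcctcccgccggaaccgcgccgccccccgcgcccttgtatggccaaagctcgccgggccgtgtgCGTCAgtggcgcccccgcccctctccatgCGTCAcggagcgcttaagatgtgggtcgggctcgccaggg
Nr4a2, chr2:57124004-57124253, minus strand: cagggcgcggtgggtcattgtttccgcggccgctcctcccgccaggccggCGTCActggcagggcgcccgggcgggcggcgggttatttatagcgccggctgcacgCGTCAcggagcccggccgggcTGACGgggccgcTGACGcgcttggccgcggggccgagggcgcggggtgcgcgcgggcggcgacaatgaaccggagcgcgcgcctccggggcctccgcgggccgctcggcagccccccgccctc
Nr4a3, chr4:48045055-48045152, plus strand: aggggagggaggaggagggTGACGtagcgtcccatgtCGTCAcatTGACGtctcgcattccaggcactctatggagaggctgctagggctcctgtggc
Egr2, chr10:67537619-67537868, plus strand: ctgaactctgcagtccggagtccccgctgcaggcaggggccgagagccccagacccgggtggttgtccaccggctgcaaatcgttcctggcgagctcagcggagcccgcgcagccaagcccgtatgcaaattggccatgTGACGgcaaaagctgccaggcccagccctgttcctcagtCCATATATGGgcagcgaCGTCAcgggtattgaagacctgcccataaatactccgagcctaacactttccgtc

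Each of the 3 NR4A windows of 250 bases held 4 copies of TGACG, counted on both strands. Of all 32851 promoter windows of this length, 17.8% held at least 1 copy and 0.137% at least 4. The threshold of 4 is the count seen in these same NR4A windows, and TGACG was 1 of several motifs searched. The windows were not matched for base composition, so these shares are a description only. For Nr4a3 the fourth copy lies in the annotated first exon, which is not shown. Egr2 has 5 annotated start windows, and the one shown was picked after the search because it holds both motifs and no exon base. It held 2 copies of TGACG and 1 CArG box, as did both windows that overlap it, and the choice fixes these counts. Of the other Egr2 windows, the one at chr10:67535249-67535498 held none of the motifs searched, and the one at chr10:67537316-67537565 held 1 CArG box, 3 NFAT cores and no TGACG. No NR4A window held a CArG box, which was found in 1.47% of all windows. The EGR motif GCGNGGGCG occurred once each in the Nr4a1 and Nr4a2 windows and in 4.70% of all windows. The NR4A response element AAAGGTCA and the AP-1 motif TGANTCA, present in 1.34% and 6.75% of windows, were in none of the NR4A or Egr2 windows. The NFAT core GGAAA was found once in the Nr4a2 window, once in the Egr2 window shown, and in 55.6% of all windows. These are matches of letters in a short window and not measured binding sites.

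Other immediate early genes were mostly called neither, unlike Egr2 and Egr3. Of 28 listed, 22 were measured. The rule called 1 higher and 2 lower and left 19 uncalled, and their median log2 fold was 0.12, beside -0.01 over all measured genes. Of all measured genes, 13.7% were called in either direction. The higher gene was Fosl2, a FOS-related AP-1 subunit, with 60 reads in the exhausted and 19 in the effector library (2.91-fold, 1.71 to 5.16). The lower genes were Fos and the Kruppel-like factor gene Klf6, at 590 against 1585 reads for Fos and 866 against 1725 for Klf6. The most abundant genes called neither were the antiproliferative gene Btg1 (1.27-fold), the phosphatase gene Dusp2 (1.72-fold) and the quiescence factor gene Klf2 (1.42-fold). The folds of Dusp2 and of Nfkbiz (1.695) lay within the counting interval of Egr1. At a threshold of 1.5-fold, 3 of the 22 were called higher and 6 lower, beside 13.6% of all measured genes in each direction. Among the lower ones at that threshold were Jun (0.587-fold), Junb (0.550-fold) and Jund (0.602-fold). Ratios within a library restate these reads without any scaling, for partners picked after their values were seen. Fos had the lowest fold of the measured genes listed, so its ratios differ most. There were 1.37 Egr1 reads per Ier2 read in the exhausted library (1.30 to 1.45) and 0.932 in the effector library (0.871 to 0.997). There were 5.31 Egr1 reads per Fos read in the exhausted library (4.86 to 5.81) and 1.04 in the effector library (0.971 to 1.12). There were 2.24 Egr2 reads per Fos read in the exhausted library (2.03 to 2.47) and 0.225 in the effector library (0.2002 to 0.253). Nr4a1 kept step with Ier2, another immediate early gene, at 29.0 reads per 100 Ier2 reads in the exhausted (26.6 to 31.6) and 31.2 in the effector library (28.3 to 34.3).

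**Figure D3:**
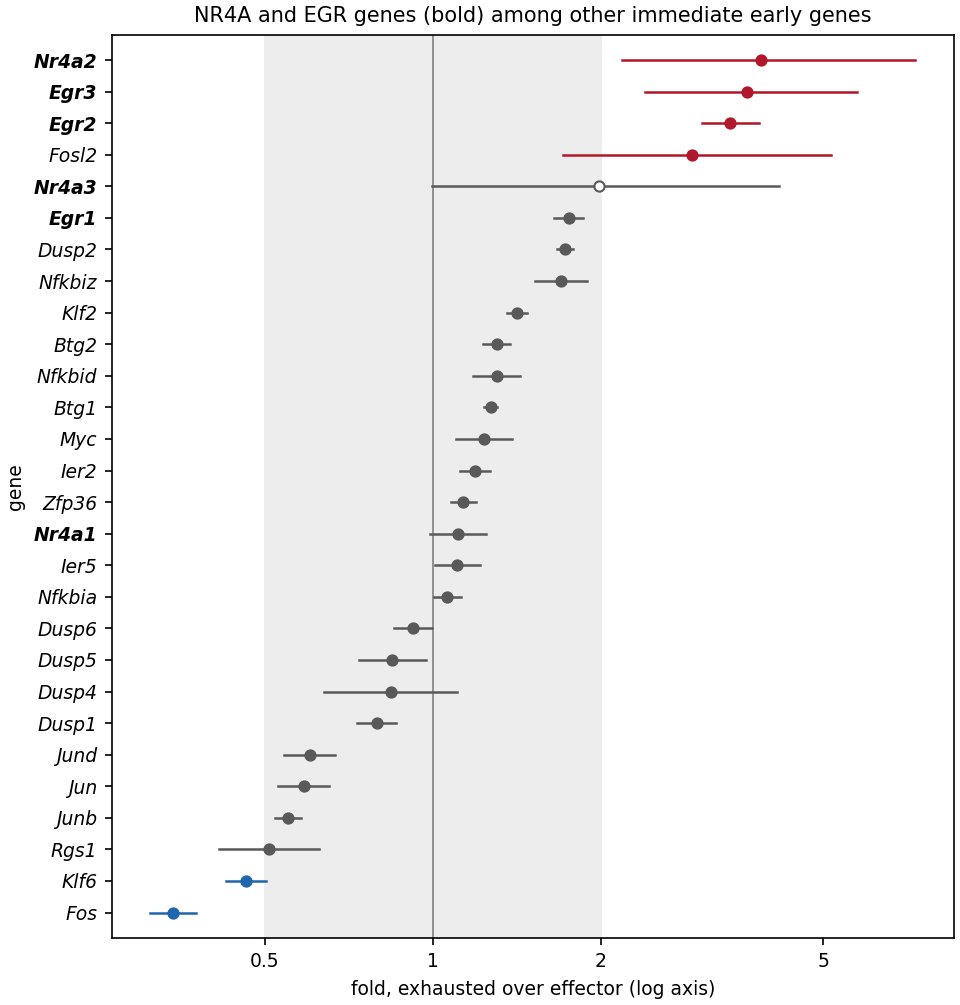
Fold of each gene, exhausted over effector library on a log axis (x axis), with its exact 95% counting interval, for the 6 NR4A and EGR genes (bold) and 22 other measured immediate early genes (rows). Red points were called higher, blue points lower, grey points neither, the open point (Nr4a3) had under 50 reads, and the grey band spans folds within 2. Nr4a2, Egr3 and Egr2 stand at the top and Fos at the bottom.

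Genes upstream of the NR4A and EGR genes were mostly called neither, as were most measured genes. Of 25 listed genes for calcineurin, NFAT, MEF2, SRF, ELK, CREB and MAP kinase proteins, 24 were measured. The rule called 3 higher and 1 lower and left 20 uncalled, and their median log2 fold was -0.06. Over all measured genes 13.7% were called in either direction. Nfatc1, the calcium-driven factor gene that antigen signals induce, had 13792 reads in the exhausted and 5015 in the effector library (2.54-fold, 2.45 to 2.62). Hdac7, which encodes a histone deacetylase that represses Nr4a1 in thymocytes, had 3170 against 1108 reads (2.64-fold, 2.46 to 2.83), and 29 of its exon bases overlap Slc48a1 on the other strand. Crem, which encodes a cyclic AMP responsive factor, had 244 against 106 (2.12-fold, 1.68 to 2.69). Ppp3ca, the gene of a calcineurin catalytic subunit, had 82 reads in the exhausted and 477 in the effector library (6.31-fold lower, 4.98 to 8.08). The abundant genes Nfatc3 and Nfatc2 were called neither, at 0.954-fold and 1.66-fold.

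The partners of these factors were divided. NAB1 and NAB2 bind EGR1, EGR2 and EGR3 and repress their activity, and EGR factors in turn induce Nab2. Nab2 had 1283 reads in the exhausted library, against 538 in the effector library (2.20-fold, 1.99 to 2.43), and its exons overlap Stat6 and Nemp1 on the other strand. Nab1 had 1374 against 2179 reads (0.581-fold, 0.543 to 0.622) and was not past 2-fold. There were 103.0 Egr2 reads per 100 Nab2 reads in the exhausted library (95.3 to 111.3) and 66.4 in the effector library (57.9 to 76.0). Among the retinoid X receptor genes, whose products pair with NUR77 and NURR1, Rxra was 2.11-fold lower (122 against 237 reads, 1.69 to 2.64). Rxrb was level at 627 against 536 reads (1.08-fold, 0.959 to 1.21), and Rxrg had 0 reads in both libraries.

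Genes linked to EGR2 and EGR3 in T cells moved in both directions. Of 18 listed, 16 were measured. The rule called 6 higher and 4 lower and left 6 uncalled, and the median log2 fold was 0.09 and the mean 0.62. Over all measured genes 6.62% were called higher and 7.09% lower. The largest fold besides that of the inhibitory receptor gene Lag3 was that of Nrn1, which encodes neuritin, at 1685 reads in the exhausted and 25 in the effector library (62.1-fold, 41.9 to 96.3). Its exons overlap Fars2 on the other strand. Rnf128, which encodes the ubiquitin ligase GRAIL, the transcriptional inhibitor gene Id3, the costimulatory receptor gene Tnfrsf9 and Nab2 were also higher. On the lower side, Socs3, a suppressor of cytokine signalling, had 85 against 542 reads (6.92-fold lower, 5.49 to 8.80), and Crtam, which encodes an adhesion receptor of activated T cells, had 8 against 62 (8.41-fold lower, 4.01 to 20.3). Fasl and the stress response gene Ndrg1 were lower too. The diacylglycerol kinase genes Dgka and Dgkz, brakes on receptor signalling, were called neither, at 1.02-fold and 1.11-fold, as was the ubiquitin ligase gene Cblb (2605 against 1332 reads, 1.80-fold, 1.69 to 1.93).

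Genes linked to NR4A factors in T cells were more often higher than lower. Of 15 listed, 14 were measured. The rule called 7 higher and 3 lower and left 4 uncalled, and the median log2 fold was 0.94. Over all measured genes 6.62% were called higher and 7.09% lower. The gene not measured was Havcr2, with 0 reads in the exhausted and 24 in the effector library. With a minimum of 1 read, 4 of 15 were called lower. The higher ones were Nt5e, Pdcd1, Folr4, Tox, Irf4, Tnfrsf9 and Ikzf2. Ikzf2, which encodes the regulatory T cell factor Helios, had 459 reads in the exhausted and 173 in the effector library (2.44-fold, 2.05 to 2.93). The lower ones were Tox2, Foxp3 and Ikzf4, whose products include the factor that defines regulatory T cells, and Ikzf4 had 8 against 48 reads (6.51-fold lower, 3.05 to 15.9). Batf, Ctla4 and the death gene Bcl2l11 were called neither. Several of these genes stand in more than 1 list, and the lists were drawn up with earlier results of these data known, so their direction is no independent evidence.

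**Figure D4:**
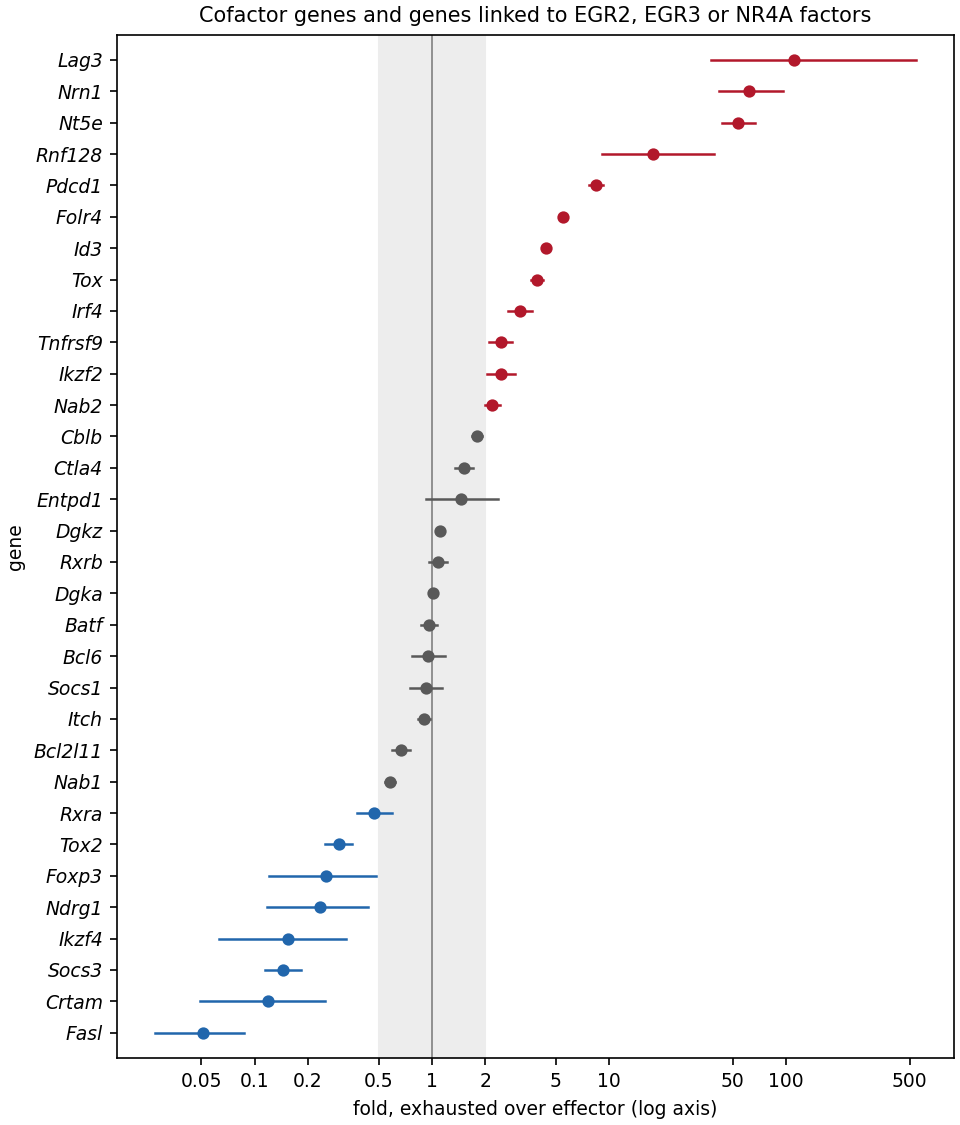
Fold, exhausted over effector library on a log axis (x axis), with exact 95% counting intervals, for the measured genes (rows) among EGR and NR4A cofactors and genes linked to EGR2, EGR3 or NR4A factors. Red points were called higher, blue points lower and grey points neither, and the grey band spans folds within 2. Folds run from Lag3 at the top to Fasl at the bottom, with Nab2 above and Nab1 below equality.

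Genes of recent receptor stimulation were not uniformly higher either. Of 18 listed, 16 were measured. The rule called 4 higher and 3 lower and left 9 uncalled, and the median log2 fold was 0.39. Over all measured genes 6.62% were called higher and 7.09% lower. Spry1, which encodes a feedback inhibitor of MAP kinase signalling, had 771 reads in the exhausted and 54 in the effector library (13.2-fold, 9.98 to 17.7). The surface protein gene Cd200 (6.32-fold), Irf4 and Tnfrsf9 were the others called higher. Il2, Il2ra and Ifng, all induced by activation, were called lower. Cd5, whose product scales with receptor signal strength, and the costimulatory genes Icos and Cd40lg had folds of 1.57, 1.80 and 1.34. Heat shock genes, which handling stress can raise as it can raise immediate early genes, were mostly called higher in the exhausted library, as were Egr2 and Egr3. Of 13 listed, 12 were measured. The rule called 9 higher and 0 lower and left 3 uncalled, beside the same 6.62% and 7.09% of all measured genes. The median log2 fold of the heat shock genes was 1.42. Summed, these heat shock genes had 10300 CPM in the exhausted and 3962 CPM in the effector library. Hspa1b had 1397 reads against 63. Of the 22 other measured immediate early genes, 1 was called higher and 2, Fos and Klf6, lower, with a median log2 fold of 0.12. The part of handling in the EGR and NR4A values was not tested.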

How the data were processed

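Per the labels' protocols, low-input total RNA libraries were prepared from Trizol-extracted RNA of sorted TEa cells. The authors deposited raw, whole-number counts of reads per gene in 1 table with gene positions and lengths. Per the submitters' processing notes, STAR 2.6 and build mm10 were used. How reads were counted, with which strand setting and annotation, was not given in the sources used here. No molecular identifiers are recorded, so amplified copies may make intervals too narrow.

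Columns were assigned by title. Effective library sizes were computed over the whole table (trimmed mean of M-values, TMM, edgeR 4.0.16, R 4.3.3), and intervals with scipy 1.17.1. The rule was tested on simulated data that held counting noise only and no spread between animals. Folds were planted in genes with more reads than Nr4a2, Nr4a3 or Egr3 had. Recovery of a fold at the depth of those 3 members was therefore not tested. A count of 0 was set to a floor of 3 reads. Alternatives were DESeq2 1.42.0 size factors and the other settings of the closing section. In GENCODE M21 no member shares exon sequence with another gene.

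The members and the 16 gene lists were chosen with earlier results of these data known. For 2 list entries the symbol was matched through the gene ID, and 1 was not found. Named were the members, all cofactors, up to 6 called genes per direction in each list, the 3 most abundant others, the leading markers and the nearest genes by level. Other genes were named after their values were seen.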

Additional observations from a re-analysis of the deposited data

How the results depend on the processing

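Under the 4 other scalings the folds of the 6 members stayed within their counting intervals. Nr4a1 ranged from 1.11 to 1.13 and Nr4a3 from 1.99 to 2.02. With DESeq2 size factors the interval of Nr4a1 excluded equality (1.01 to 1.27), and so did that of Nr4a3 (1.015 to 4.26). The Nr4a3 interval did so too with upper quartile factors (from 1.002) and with protein-coding genes only (from 1.001), but its reads stayed under the minimum. The median log2 fold of all measured genes lay between -0.01 and 0.02 under every scaling. The count of members called higher stayed at 3 under every scaling, with a minimum of 1 read and with intervals wholly beyond 2-fold, was 1 (Egr2) with a minimum of 500 reads and was 4 at 1.5-fold. Over all genes, 1034 were called higher and 1104 lower with a minimum of 1 read, 244 and 264 with 500 reads, 405 and 456 with intervals wholly beyond 2-fold, and 1360 and 1364 at 1.5-fold. With a minimum of 1 read the median log2 fold of other immediate early genes was -0.12 and that of the genes linked to NR4A factors 0.60. With 500 reads, which leaves fewer genes, several lists held fewer lower calls and had higher medians. Of 3 cofactor genes, 1 was then called higher and 0 lower, and their median was 0.109 where it had been -0.337. Of 9 genes linked to EGR2 and EGR3, 4 were then called higher and 1 lower (median 0.85), of 11 linked to NR4A factors 7 and 1 (median 1.29), and of 10 genes of recent stimulation 4 and 0 (median 0.75). Shares of family reads moved per kilobase. Egr2 then made up 36.4% in the exhausted and 23.7% in the effector library, Egr1 57.2% and 72.4%, and Egr3 6.41% and 3.89%. Nr4a1 made up 92.2% and 97.2%, Nr4a2 6.07% and 1.83%, and Nr4a3 1.68% and 0.990%. Each gene's share kept its direction between the libraries. By GENCODE lengths, an alternative chosen after seeing the data, Egr2 made up 34.9% and 21.9%. No paired analysis was possible because each group has 1 library. Depth limits Nr4a2, Nr4a3 and Egr3 most, with 15, 13 and 28 effector reads.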

Other observations

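The genes closest to each measured member by level per length in the 2 libraries were listed as neighbours, by the distance between points on the log2 scale. Egr1 lay nearest to Kcna3, which encodes a voltage-gated potassium channel of T cells (1360 reads in the exhausted and 718 in the effector library, distance 0.020), then Syngr2 and Rnf19a. Egr2 lay nearest to Ccdc117 (1437 against 415 reads, distance 0.072), then Filip1l and Tmem64. Egr3 was followed by Plxna3, Fhit and Tnks1bp1, and Nr4a2 by Qrfp, Slc16a10 and Raph1, all at distances of 0.082 to 0.210. Nr4a1 lay nearest to Nxt1, Shmt2 and Spin1, within 0.025. Likeness over 2 libraries describes a level and a fold and nothing more.

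Cd8b1 had 81 reads in the exhausted and 164 in the effector library, while Cd8a had 0 in both. Klrb1c, a marker of NK cells, had 229 reads in the exhausted and 36 in the effector library (5.86-fold, 4.11 to 8.58). By contrast Klrc1 had 1 read against 24, Ncr1 0 against 5 and Eomes 10 against 53.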
